A study of Mus musculus with 6 samples.

Results

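Mouse embryoid bodies, balls of differentiating embryonic stem cells grown in suspension, were measured for 8 globin and red cell genes: Hbb-y, Hbb-bh1, Hba-x, Hba-a1, Alas2, Slc4a1, Epor and Ahsp. The members were the probe sets that the array's annotation table assigns to these genes. These were 7 genes of the 18194 with a probe set of their own in the table, read by 16 of the 45037 probe sets that are not controls. Of the 16, 13 were annotated to 1 gene and 3 to both Hba-a1 and Hba-a2. Ahsp is not analysed here. Bodies of the D3 stem cell line were sampled at 10 days and gave 6 arrays. On 3 arrays the microspheres inside the bodies carried retinoic acid (RA), which cells make from vitamin A and sense through nuclear receptors. On the other 3, the control arrays, the microspheres carried the dye CellTracker Red. Both groups thus held gelatin-coated microspheres in medium without LIF, the factor that keeps stem cells undifferentiated. All bodies came from 1 cell line, the RA dose is not given in the sources used here, and no bodies without microspheres were used here.

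Haemoglobin joins alpha-type and beta-type globin chains, each of which holds a heme group. The first red cells of the mouse embryo, the primitive erythroid cells of the yolk sac, make the embryonic chains encoded by Hba-x (zeta), Hbb-y (epsilon-y) and Hbb-bh1 (beta-H1) together with the alpha chains of Hba-a1 and Hba-a2. Embryoid bodies are known to form such cells as they differentiate. Each array read the RNA of whole bodies, so fewer red cells and less globin RNA per cell cannot be told apart.

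The deposited values are linear intensities, and levels below are on the log2(intensity + 16) scale after quantile normalization. Median signals were 61.7, 63.7 and 65.5 on RA arrays 1, 2 and 3, against 54.8, 63.7 and 41.4 on control arrays 1, 2 and 3. The ratio of the 3-prime to the 5-prime Gapdh probe set, which rises as RNA degrades, reached 34 on RA array 1 and lay at 3.06 to 4.74 on the other 5 arrays. Probe sets with a mean level above the 40th percentile, 5.74, were tested with limma, and a gene or probe set passed at a Benjamini-Hochberg adjusted p below 0.05. A level below 5.74 is open to background, and no detection calls were used here.

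The embryonic globins were far lower with RA and Alas2 was lower from a modest control level, whereas Slc4a1 and Epor did not pass the test. Of the 8 member genes, 6 were tested, through the brightest kept probe set annotated to 1 gene. Of these 6, 4 fell with RA and 0 rose. Among all 13608 genes tested, 15.6% fell and 14.3% rose. The median log2 fold change of the 6 tested members was -3.35, against 0.01 over all genes. On the same 4 genes every RA array lay below every control array, a pattern that held for 22.2% of all genes. Alas2 is among the 6 only because of its level in controls, so the share and the median are descriptions. Among the 13 tested probe sets of the members, 11 fell and 0 rose, against 11.1% lower and 11.3% higher among all 27022 probe sets. Of the 11, 3 had RA means below the filter level and were tested only through their level in controls, so this count too is a description.

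**Figure D1:**
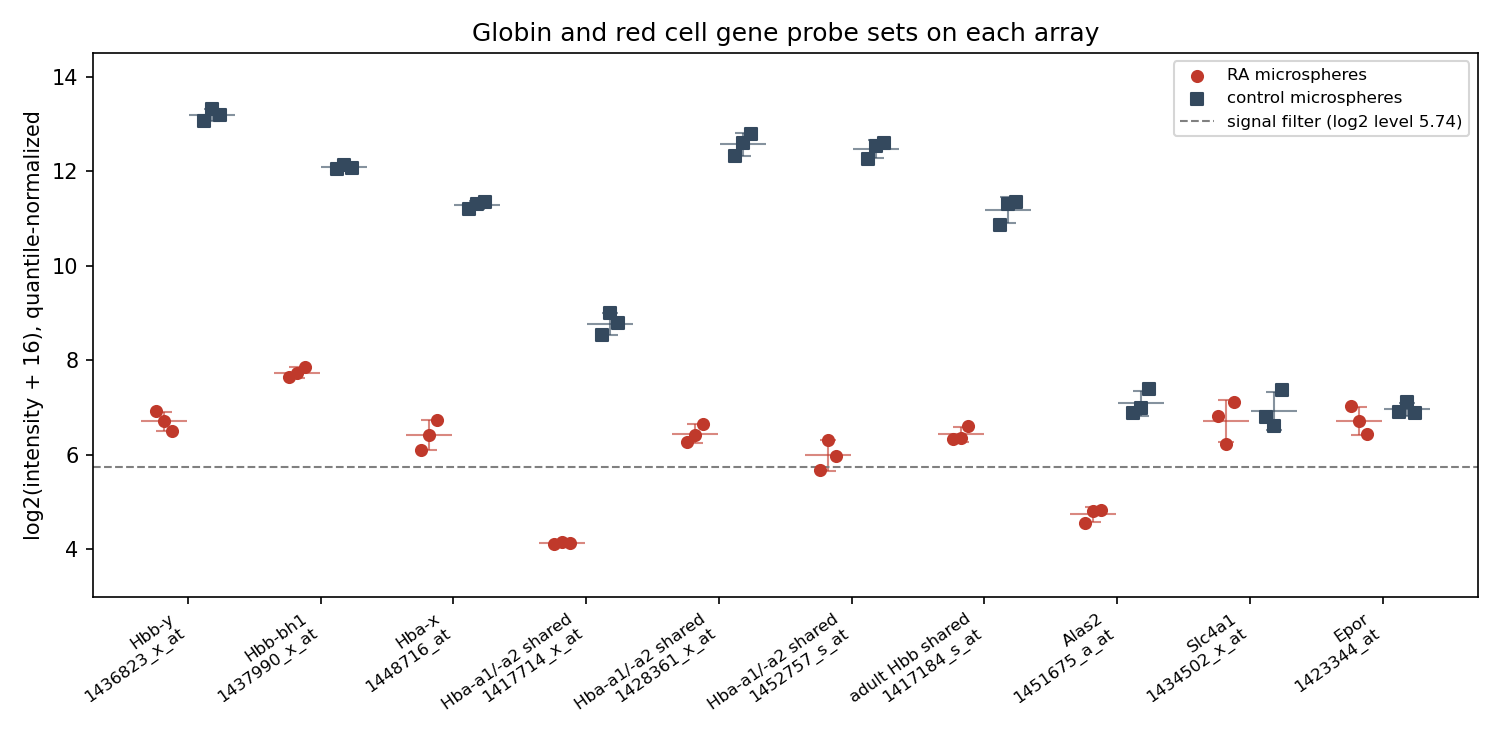
Levels of the member probe sets on each array, as log2(intensity + 16) after quantile normalization, with RA arrays (red circles) left of control arrays (blue squares), means with SD as error bars (n = 3) and the signal filter at 5.74 as a dashed line. The brightest kept probe set of each gene is shown, with the probe sets shared by Hba-a1 and Hba-a2 and by the adult beta globins. RA and control arrays are apart for all globin probe sets shown and for Alas2, and overlap for Slc4a1 and Epor.

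Among the beta-type embryonic globins, Hbb-y had the largest fall of all genes tested. Its brightest probe set, 1436823_x_at, had deposited signals of 109.6, 98.1 and 84.8 on RA arrays 1, 2 and 3, against 8628, 9885 and 6735 on control arrays 1, 2 and 3. Every control array was far above every RA array. The level was 6.71 ± 0.20 with RA and 13.19 ± 0.12 in controls (SD, n = 3), a log2 fold change of -6.47 ± 0.11 (SE, limma adjusted p = 3.83e-11). Hbb-y has 2 further probe sets, both annotated to it alone. On 1436717_x_at the signals were 113, 74.5 and 71.4 with RA and 8617, 10008 and 6736 in controls. On 1450621_a_at they were 3.96, 4.21 and 6.16 with RA and 2522, 2644 and 1545 in controls. These 2 probe sets differ in how dim they were with RA and gave log2 fold changes of -6.64 ± 0.15 and -6.96 ± 0.14 (limma adjusted p over probe sets 8.76e-10 and 4.33e-10). The RA level of 1450621_a_at, 4.34 ± 0.07, lay below the filter level. With the RA level set to the filter level, the fall was 47.3 times.

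Hbb-bh1 lies on chromosome 7, as does Hbb-y, and encodes the other embryonic beta-type chain. Its brightest probe set, 1437990_x_at, had signals of 186, 219.8 and 238 on RA arrays 1, 2 and 3, against 4364, 4456 and 2724 on control arrays 1, 2 and 3. The groups were wide apart, at 7.74 ± 0.11 with RA and 12.08 ± 0.05 in controls. The log2 fold change was -4.34 ± 0.09 (SE, limma adjusted p = 1.05e-10), or 20.2 times lower. The probe sets 1450736_a_at and 1437810_a_at gave -4.75 ± 0.10 and -4.84 ± 0.14, 27.0 and 28.6 times lower (limma adjusted p over probe sets 4.33e-10 and 3.29e-09). In contrast to Hbb-y, all 3 probe sets of Hbb-bh1 kept RA means above the filter level, from 6.81 to 7.74.

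The intervals of the embryonic beta-type genes did not overlap. The 95% confidence intervals of the 3 Hbb-y probe sets lay between -7.26 and -6.22, and those of the 3 Hbb-bh1 probe sets between -5.14 and -4.14. The difference between the genes was not itself tested. Background signal limits the fall that a probe set can show. The RA means of the Hbb-y probe sets were 6.71, 6.55 and 4.34, the last below the filter level. Those of the Hbb-bh1 probe sets lay above it, from 6.81 to 7.74.

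Among the alpha-type genes, Hba-x, which encodes the embryonic zeta chain, has 1 probe set, 1448716_at. Its signals were 56.0, 76.2 and 102 on RA arrays 1, 2 and 3, against 2442, 2498 and 1588 on control arrays 1, 2 and 3. No RA array came near a control array. The level was 6.42 ± 0.32 with RA and 11.28 ± 0.08 in controls, a log2 fold change of -4.86 ± 0.15 (SE, limma adjusted p = 2.39e-09). By size of fall, Hbb-y, Hba-x and Hbb-bh1 stood at places 1, 9 and 13 among all genes tested. A fall of more than 4 on the log2 scale that passed was found for 0.103% of genes.

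Hba-a1 encodes an alpha chain used in embryonic and adult red cells, and Hba-a2 is its near-identical neighbour on chromosome 11. The only probe set annotated to Hba-a1 alone, 1453574_at, was dim, with signals of 8.81, 8.10 and 13.7 with RA and 11.1, 21.9 and 6.27 in controls. The groups overlapped there, and the probe set lay below the filter and was not tested. The 3 probe sets annotated to both alpha genes behaved otherwise. The brightest of them, 1428361_x_at, had signals of 65.3, 76.2 and 95.8 on RA arrays 1, 2 and 3, against 5235, 5989 and 4684 on control arrays 1, 2 and 3. On 1452757_s_at the signals were 36.3, 70.2 and 53.2 with RA and 5062, 5769.9 and 4063 in controls. On 1417714_x_at they were 1.45, 2.00 and 1.68 with RA and 381, 511 and 279 in controls. All 3 fell, with log2 fold changes of -6.12 ± 0.14, -6.47 ± 0.16 and -4.63 ± 0.23 (SE, limma adjusted p over probe sets 7.74e-10, 1.39e-09 and 2.07e-07). The level of 1417714_x_at was 4.13 ± 0.02 with RA, below the filter level, and 8.77 ± 0.23 in controls, the dimmest control level of the 3. With the RA level set to the filter level, its fall was 8.17 times.

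These probe sets do not tell Hba-a1 from Hba-a2. By the array maker's naming, the endings _s_at and _x_at mark probe sets whose probes match several transcripts or may read related ones, and 6 of the 10 tested probe sets of member globins carry one of them. The one tested probe set annotated to Hba-a2 alone, 1427219_at, had signals of 138, 61.5 and 77.9 with RA and 58.4, 115 and 44.1 in controls. Its groups overlapped, and its log2 fold change of 0.11 (95% confidence interval -0.58 to 0.80) did not pass (limma adjusted p over probe sets 0.853). Its control level was 6.49 ± 0.37, against 12.57 ± 0.24 on the shared 1428361_x_at, which leaves it little room for a fall. The shared and the single-gene probe sets of the alpha pair therefore gave different values for the same contrast. Adult beta globins showed the same split. The probe set 1417184_s_at, annotated to Hbb-bt, Hbb-bs, Hbb-b2 and Hbb-b1, had a log2 fold change of -4.75 ± 0.15, with signals of 69.3, 71.9 and 91.8 with RA and 1949.7, 2539 and 1596 in controls (limma adjusted p over probe sets 6.88e-09). A probe set annotated to Hbb-b2 alone, 1427865_at, had 43.3, 42.6 and 41.0 with RA and 97.1, 82.1 and 5.12 in controls, and did not pass (-0.19, 95% confidence interval -1.33 to 0.95, limma adjusted p over probe sets 0.845). Another, 1427866_x_at, had signals of 2.33 to 5.76 over all arrays, lay below the filter and was not tested. Both were dim, which leaves little room for a fall. Whether the adult beta probe set read embryonic beta-type RNA was not tested, since probe sequences were not used here.

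Of 15 listed genes of the globin family, members included, 8 were tested, of which 4 fell and 0 rose (median -1.73). Among all genes tested the shares were 15.6% lower and 14.3% higher. The 4th was Cygb, cytoglobin, a globin of cells other than red cells, at 4.65 ± 0.12 with RA, below the filter level, and 7.25 ± 0.34 in controls (log2 fold change -2.60, limma adjusted p = 5.86e-05). It was tested only through its level in controls, and its fall was 2.85 times, or -1.51 on the log2 scale, with the RA level set to the filter level. Mb, the myoglobin of muscle, did not pass with all arrays (-0.87, limma adjusted p = 0.0599), but did without RA array 3 (-1.17, limma adjusted p = 0.0208). Ngb, the neuroglobin of neurons, was at 6.38 in both groups and did not pass (limma adjusted p = 0.989).

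**Figure D2:**
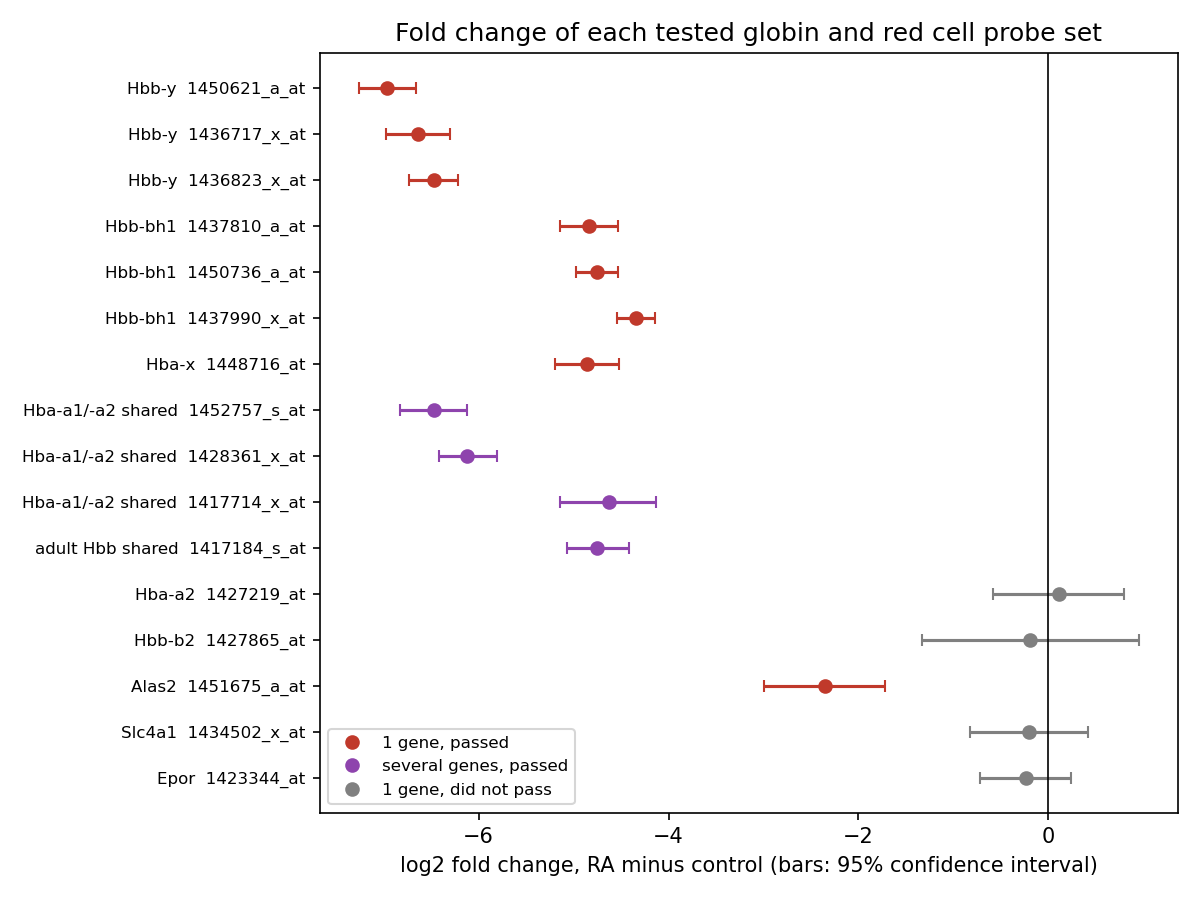
Log2 fold change, RA minus control, of each tested probe set of the members and of their adult globin relatives, with 95% confidence intervals as bars (limma, n = 3 arrays in each group). Probe sets annotated to 1 gene that passed are red, those annotated to several genes purple, and those that did not pass grey. All probe sets of Hbb-y, Hbb-bh1 and Hba-x and all shared globin probe sets lie below -4, while the intervals of the single-gene Hba-a2 and Hbb-b2 probe sets, Slc4a1 and Epor include 0.

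Among the genes for heme, membrane and growth factor receptor, Alas2 encodes the enzyme that starts heme synthesis in red cells. Its probe set 1451675_a_at had signals of 8.35, 13.4 and 14.1 on RA arrays 1, 2 and 3, against 101, 122 and 106 on control arrays 1, 2 and 3. All control arrays were above all RA arrays, although the control signal was itself modest. The level was 4.74 ± 0.16 with RA and 7.09 ± 0.27 in controls, a log2 fold change of -2.35 ± 0.29 (SE, limma adjusted p = 0.000114). This corresponds to 5.11 times lower, or to 2.56 times when the RA level is set to the filter level. With any control array left out, or with the filter at the 60th percentile, Alas2 was no longer among the genes tested and 3 members fell.

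Slc4a1 encodes band 3, the anion exchanger and main membrane protein of the red cell. The brightest of its 3 probe sets, 1434502_x_at, had signals of 102, 64.4 and 135 with RA and 93.4, 88.5 and 104 in controls. The groups overlapped, and the log2 fold change of -0.20 (95% confidence interval -0.82 to 0.41) did not pass (limma adjusted p = 0.635). Its other probe sets lay below the filter and went opposite ways. On 1416464_at the level was 5.12 ± 0.45 with RA and 6.05 ± 0.45 in controls, and on 1431743_a_at it was 5.94 ± 0.44 with RA and 5.35 ± 0.90 in controls. In a fit without the filter neither passed (-0.93 and 0.59, limma adjusted p over probe sets 0.145 and 0.519).

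Epor encodes the erythropoietin receptor, through which red cell precursors receive their survival signal. Its probe set 1423344_at had signals of 119, 97.8 and 79.3 on RA arrays 1, 2 and 3, against 102, 134 and 72.3 on control arrays 1, 2 and 3. The ranges overlapped. The log2 fold change was -0.24 (95% confidence interval -0.72 to 0.24, limma adjusted p = 0.449), so a change of the size seen for Alas2 lay outside the interval.

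The bases before the start of the members are shown because the members moved together in part. RefSeq's promoter table (GRCm38.p6) held 5 of the 8 members, and the 250 bases before each start are printed on the gene's strand, 5′ to 3′, for 4 genes with globin or Alas2 probe sets that fell and for Epor, which did not pass. Capitals mark matches on either strand, neighbouring and overlapping matches running together, to these words: the GATA words AGATAA or AGATAG or TGATAA or TGATAG, the CACCC word, the CCAAT word, the TATA words TATAA and CATAAA, and the nuclear receptor words AGGTCA or GGGTCA or AGTTCA or GGTTCA. Words of the GATA and CACCC kinds are those read by the erythroid factors GATA1 and KLF1. The windows are chr7:103853208-103853457 (- strand), chr11:32276350-32276599 (+ strand), chr11:32283422-32283671 (+ strand), chrX:150547167-150547416 (+ strand) and chr9:21963577-21963826 (- strand).
Hbb-y: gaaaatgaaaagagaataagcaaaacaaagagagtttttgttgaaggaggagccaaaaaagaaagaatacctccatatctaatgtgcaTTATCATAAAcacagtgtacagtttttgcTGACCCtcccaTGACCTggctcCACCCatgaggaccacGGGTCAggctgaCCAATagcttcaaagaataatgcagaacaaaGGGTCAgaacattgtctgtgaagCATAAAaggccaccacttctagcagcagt
Hba-x: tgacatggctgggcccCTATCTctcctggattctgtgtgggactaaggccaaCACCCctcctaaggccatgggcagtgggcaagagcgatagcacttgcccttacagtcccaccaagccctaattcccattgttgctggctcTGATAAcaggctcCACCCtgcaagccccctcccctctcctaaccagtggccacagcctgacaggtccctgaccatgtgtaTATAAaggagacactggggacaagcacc
Hba-a1: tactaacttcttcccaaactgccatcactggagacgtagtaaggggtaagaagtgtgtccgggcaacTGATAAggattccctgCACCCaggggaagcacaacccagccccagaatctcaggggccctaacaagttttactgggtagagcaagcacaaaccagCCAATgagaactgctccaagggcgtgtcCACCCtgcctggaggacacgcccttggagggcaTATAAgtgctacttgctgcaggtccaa
Alas2: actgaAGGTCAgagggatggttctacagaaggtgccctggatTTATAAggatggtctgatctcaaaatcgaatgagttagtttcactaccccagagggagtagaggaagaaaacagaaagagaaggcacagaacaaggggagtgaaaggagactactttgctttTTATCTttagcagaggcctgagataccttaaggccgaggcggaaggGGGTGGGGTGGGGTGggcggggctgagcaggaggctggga
Epor: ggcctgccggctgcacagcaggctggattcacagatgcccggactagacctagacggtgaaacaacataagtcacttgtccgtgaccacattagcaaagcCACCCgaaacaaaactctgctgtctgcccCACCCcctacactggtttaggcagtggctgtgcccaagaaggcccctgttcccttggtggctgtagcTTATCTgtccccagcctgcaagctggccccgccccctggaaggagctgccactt

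All 5 windows held both a GATA and a CACCC word, which was so for 11.8% of 32817 windows of that length in the table. A GATA word alone was found in 26.6% and a CACCC word in 52% of windows. Epor, which did not pass, thus also held both. A TATA word lay close before the start of each globin gene, from base 29 to base 24 in Hbb-y, from 28 to 24 in Hba-x and from 27 to 23 in Hba-a1, counted back from the start. In Hbb-y a second CATAAA, farther upstream, overlaps the GATA word. TATA words were in 29.7% of windows, and Epor had 0. CCAAT, in 33.8% of windows, was found in Hbb-y and Hba-a1. Hbb-y held 4 nuclear receptor words and Alas2 held 1, while Hba-x, Hba-a1 and Epor held 0, against a share of 38.6% of windows with at least 1. The tables' 300-base windows of Hba-a1 and Hba-a2 shared an unbroken run of 297 bases, so the promoter shown for Hba-a1 is also nearly that of its neighbour. A match describes the letters only.

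Of 15 tested genes of heme synthesis, Alas2 among them, 6 fell and 0 rose, against 15.6% lower and 14.3% higher among all genes, and the median was -0.27, against 0.01 over all genes. Pgrmc1, a heme-binding protein, was at 10.12 ± 0.19 with RA and 10.65 ± 0.11 in controls (log2 fold change -0.52, limma adjusted p = 0.00269). Uros, a middle enzyme of the pathway, was at 6.66 ± 0.22 with RA and 7.74 ± 0.48 in controls (-1.09, limma adjusted p = 0.00567). Tmem14c, a mitochondrial porphyrin carrier, was at 8.93 ± 0.28 with RA and 9.47 ± 0.17 in controls (-0.53, limma adjusted p = 0.0162). Alad and Alas1, the enzyme that starts heme synthesis in other tissues, also passed (-0.39 and -0.51, limma adjusted p = 0.0284 and 0.0481), though each lost its call without control array 1, 2 or 3 and without RA array 1 (limma adjusted p from 0.0527 to 0.155), and Alas1 without RA array 2 too (0.0786). Tmem14c lost its call without control array 1 (limma adjusted p = 0.0707), and without single control arrays 2 to 3 genes of the list fell. Fech, which inserts the iron, did not pass (-0.26, limma adjusted p = 0.169). The lowest fold change of the list beside Alas2 was the -1.09 of Uros, and its difference from that of Alas2 was not tested.

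Genes of iron and heme handling moved both ways, with 4 of 13 lower and 3 higher (median 0.23), against 15.6% lower and 14.3% higher among all genes. Hpx, the plasma heme binder hemopexin, was at 5.12 ± 0.48 with RA and 8.74 ± 0.06 in controls (log2 fold change -3.61, limma adjusted p = 9.24e-07). The iron exporter Slc40a1 fell by 0.85 on the log2 scale and the biliverdin reductase Blvra by 1.04, while the heme exporter Flvcr1 was 2.35 times higher with RA (log2 fold change 1.24, but 0.61 with the mean of its probe sets). Tfrc, the transferrin receptor that red cell precursors use for iron, did not pass (0.26, limma adjusted p = 0.0866). It passed as higher in 3 of 16 alternatives. These were without RA array 2, with trimmed-mean scaling and with the mean of its probe sets (0.36, 0.36 and 0.44, limma adjusted p = 0.0212, 0.0129 and 0.00525). The RA level of Hpx lay below the filter level, and set to it gave a fall of 7.99 times.

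Of 23 listed red cell membrane genes, 15 were tested, of which 3 fell and 2 rose (median -0.15), near the shares of 15.6% lower and 14.3% higher among all genes, with 1 higher in place of 2 without RA array 1 or 3 or control array 1 or 3. The glucose transporter Slc2a1 was 3.76 times higher with RA. The other gene that rose was Tspan33, a tetraspanin (1.01, limma adjusted p = 0.0280), named after its values were seen. Its groups overlapped, and it did not pass without RA array 1 or 3 or control array 1 or 3 (0.50 to 0.73, limma adjusted p from 0.0544 to 0.140). The brightest probe set was chosen anew in each of these fits, so array and probe set were not told apart for Tspan33. In addition, the adducins Add1 and Add3 and the membrane protein Stom fell (log2 fold changes of -1.08, -1.07 and -0.77, limma adjusted p at most 0.00259, also for Slc2a1). With the mean of its probe sets, Add3 was at -0.46. For Stom the fall depended on the probe set: without control array 1 or 2 another of its probe sets was the brightest, and did not pass (-0.03 and 0.03). The erythroid surface and skeleton genes Epb42, Rhag, Rhd, Kel and Xk lay below the filter. Their control means ran from 4.65 for Kel to 5.59 for Xk, and 0 of these 5 passed in a fit without the filter, but levels this dim in both groups leave little room for a fall. Ank1 and Sptb, of the spectrin skeleton, did not pass (0.13 and 0.07, limma adjusted p = 0.676 and 0.840).

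Around the erythropoietin receptor, 3 of 12 tested genes fell and 2 rose (median -0.21), against 15.6% lower and 14.3% higher among all genes. Socs2, a feedback inhibitor of cytokine signalling, was 2.39 times higher with RA (log2 fold change 1.26, but 0.48 with the mean of its probe sets) and the adaptor Gab1 1.52 times, while Kitl and Stat5b were lower (-0.46 and -0.55). Stat5b lost its call without RA array 2 or 3 and without control array 2 or 3 (limma adjusted p from 0.0649 to 0.113), where 1 gene of the list fell. Among genes of the red cell cytoplasm, 3 of 10 fell and 2 rose (median 0.11), with 1 higher in place of 2 without RA array 2 or 3 or control array 3. The carbonic anhydrase Car2 was at 11.38 ± 0.13 with RA and 9.41 ± 0.09 in controls, 3.91 times higher, and the antioxidant genes Gpx1 and Prdx2 and the hexokinase Hk1 were lower (-0.82, -0.40 and -0.47), Hk1 not past the threshold without RA array 3 (limma adjusted p = 0.0534). Trim10, Car1 and Alox15 lay below the filter, and without it Alox15 was higher with RA (6.09 ± 0.36 with RA and 4.44 ± 0.15 in controls, limma adjusted p = 0.00128).

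Of 16 transcription factor genes known from red cell development, 6 fell and 1 rose (median -0.53), against 15.6% lower and 14.3% higher among all genes. Sox6, known to silence Hbb-y, was at 5.85 ± 0.21 with RA and 7.75 ± 0.03 in controls, and Bcl11a, also a globin silencer, was at 7.57 ± 0.08 with RA and 8.23 ± 0.11 in controls (limma adjusted p = 3.69e-05 and 0.00334). Both silencer genes were thus lower with RA, and their part in the globin result was not tested. Tal1, which is needed to form blood cells, had a log2 fold change of -1.33, and Myb was 2.20 times higher (limma adjusted p = 0.00238 and 0.00046). Gata1 and Klf1, the main activators of red cell genes, did not pass, with log2 fold changes of -0.65 and -0.39 (limma adjusted p = 0.0777 and 0.290). They were dim, with Gata1 at 5.97 with RA and 6.62 in controls, and Klf1 at 6.10 with RA and 6.49 in controls. Every RA array lay below every control array for both genes, as for 22.2% of all genes, and Gata1 passed without the eBayes trend (-0.65, limma adjusted p = 0.0296).

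**Figure D3:**
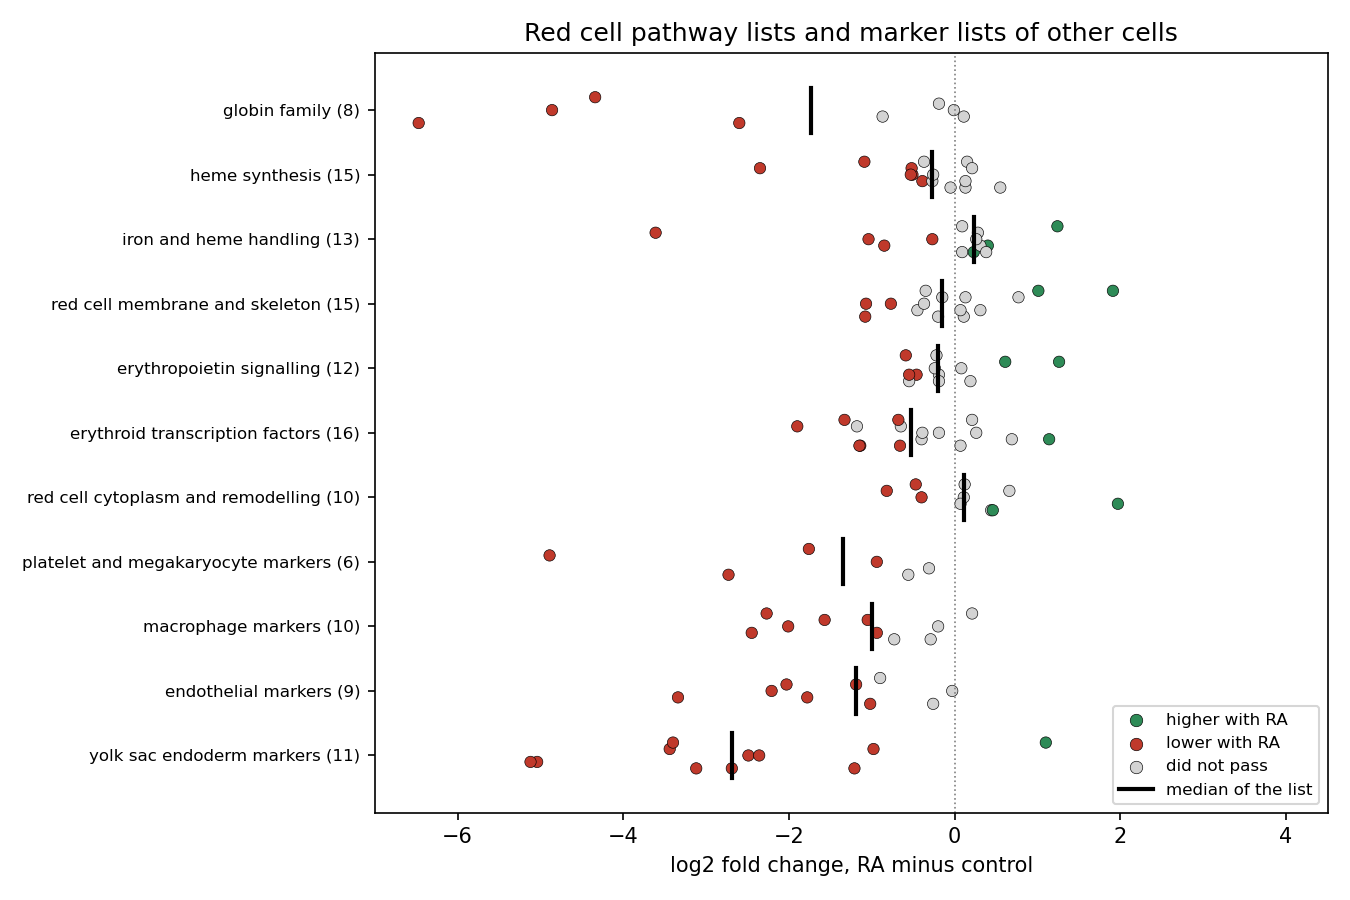
Log2 fold change, RA minus control, of each tested gene in the red cell lists and in marker lists of other cells, with the number of tested genes in brackets and the list median as a black bar. Green genes were higher with RA, red genes lower, and grey genes did not pass. Hbb-y stands at the far left (-6.47). The markers Fgb, Alb and Pf4 (-5.12, -5.04 and -4.89) lie left of Hba-x and Hbb-bh1 (-4.86 and -4.34). The heme synthesis, membrane and receptor lists have medians between -0.27 and -0.15.

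Many markers of other cells that the bodies could hold were also lower with RA. Among all genes tested, 15.6% fell and 14.3% rose, and 22.2% had every RA array below every control array. The summed intensity of the 6 tested members ran from 514 to 586 on RA arrays, against 15364 to 17442 on control arrays. All sums are on the linear scale after quantile normalization. On control arrays the sum of the members was mainly that of Hbb-y, Hbb-bh1 and Hba-x, at mean log2 levels of 13.19, 12.08 and 11.28. Alas2, Slc4a1 and Epor were at 7.09, 6.92 and 6.96 there. Of 11 yolk sac endoderm markers 10 fell and 1 rose, by smallest p led by the retinol carrier Rbp4 (-3.40), Fgb (-5.12), Alb (-5.04) and Afp (-2.69), with sums of 7333 to 8594 on RA arrays and 33559 to 35914 on control arrays. The 1 that rose was Apob (1.10, limma adjusted p = 0.00118). Platelet and megakaryocyte markers, of a lineage close to the red cell, fell in 4 of 6 cases, with sums of 276 to 311 with RA and 2210.4 to 2796 in controls. Pf4, the platelet chemokine, led them with a log2 fold change of -4.89, and Clec1b, Ppbp and Itga2b had -2.73, -1.76 and -0.94. Itga2b did not pass without control array 1 or 2 (-0.85 and -0.77, limma adjusted p = 0.0590 and 0.0739). Vwf and Gp1bb did not pass with all arrays (-0.56 and -0.31, limma adjusted p = 0.171 and 0.478). Of 9 endothelial markers 6 fell, with sums of 747 to 959.7 with RA and 1848 to 1959 in controls, by smallest p led by Cldn5 (-3.34), Sox18 (-2.21), Kdr (-1.78) and Tek (-2.03). Eng, Esam and Egfl7 did not pass (-0.90, -0.26 and -0.03, limma adjusted p from 0.0503 to 0.873). Of 10 macrophage markers 6 fell, with sums of 755 to 919 with RA and 1259 to 1886 in controls, by smallest p led by C1qb (-2.45), Cd14 (-2.01), Tyrobp (-2.27) and Cd68 (-1.57). Csf1r, Adgre1, Mrc1 and Fcer1g did not pass (0.21, -0.29, -0.20 and -0.73, limma adjusted p from 0.0542 to 0.652). RA and control sums did not overlap for any of these 4 lists. Itgb3, Gp9, Gp6, C1qa, C1qc, Pecam1 and Tie1 lay below the filter, and no marker was listed at 0. In a fit without the filter, C1qc and Tie1 were lower with RA (-1.75 and -1.48, limma adjusted p = 0.000841 and 0.0017). Their RA means, 4.42 and 4.34, lay below the filter level. The others named here did not pass in that fit. Of the genes that fell, 4 of the 6 macrophage, 3 of the 6 endothelial, 3 of the 10 yolk sac and 1 of the 4 platelet markers had RA means below the filter level and were tested only through their level in controls, so these counts are descriptions. With the RA level set to the filter level, the log2 fold changes were -1.72 for C1qb, -1.22 for Cd14, -1.38 for Cd68, -2.50 for Cldn5, -1.75 for Sox18, -1.74 for Tek, -4.50 for Fgb and -1.71 for Ppbp. The part of these cells in the globin result was not tested.

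**Figure D4:**
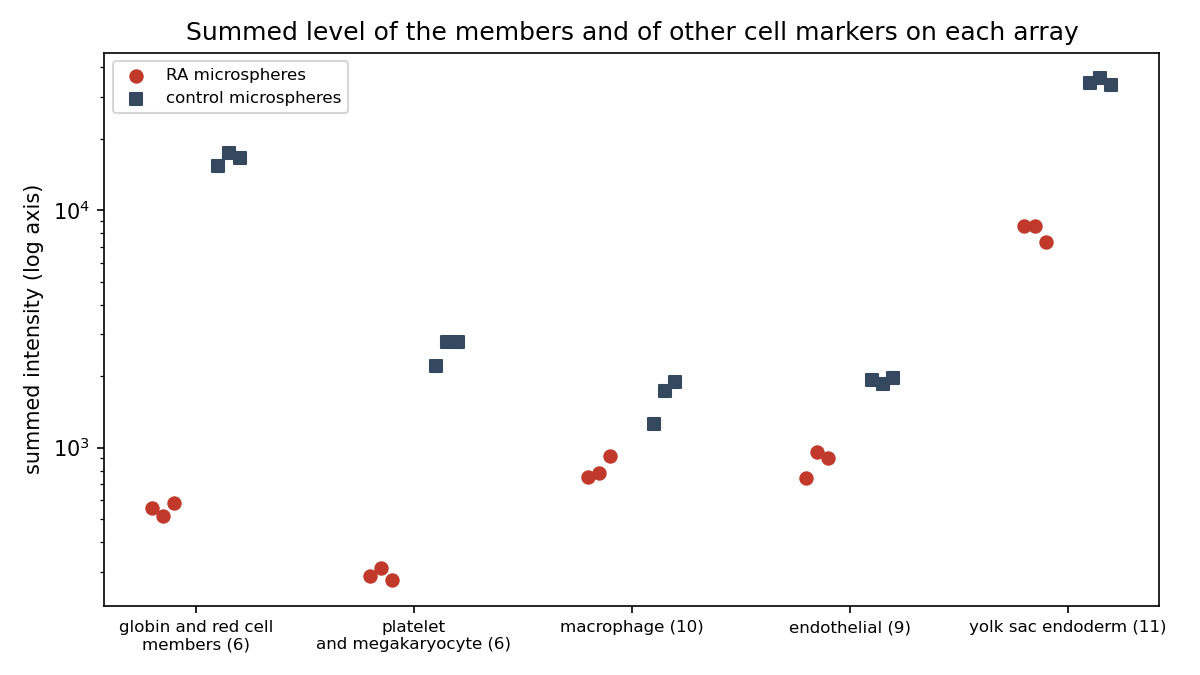
Summed intensity on each array (log axis), after quantile normalization, of the 6 tested members and of the marker lists of other cells. RA arrays (red circles) stand left of control arrays (blue squares), with the number of genes in brackets. Members lie between 514 and 586 on RA arrays and between 15364 and 17442 on control arrays, and the groups are apart in every list shown.

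By the measure used here, the genes with a profile most like that of Hbb-y were heart muscle and liver-type genes. Likeness was the mean absolute difference over the 6 arrays between log2 levels set to 0 at the control mean, and globins were left out, so it ranks mainly the size of the fall. Actc1, which encodes cardiac actin, differed from Hbb-y by 0.40, and Myh6, a cardiac myosin, by 0.63. They were followed by Fgb (fibrinogen, 0.72), Alb (albumin, 0.79) and Tnnt2 (cardiac troponin T, 0.82). Their own log2 fold changes were -6.11, -5.59, -5.12, -5.04 and -5.10. The RA levels of Myh6 (5.48), Fgb (5.11) and Tnnt2 (5.34) lay below the filter level, and those of Actc1 (5.83) and Alb (5.82) close to it, so these distances and their order depend on background.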

How the data were processed

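Total RNA of embryoid bodies from 6 samples was labelled with biotin and read on 1 Affymetrix mouse array each, per the labels. The deposited values are linear intensities for 45101 probe sets made by the authors with the Affymetrix GCOS software at default settings, per the labels. The version is not given in the sources used here. Arrays differed in level (trimmed means of 108 to 191, with 2% cut at each end), so log2(intensity + 16) was quantile-normalized. With this pseudocount, folds of dim genes are understated. After 64 control probe sets were left out, 27022 probe sets above the 40th percentile of the mean level were kept. The annotation table gives 34945 probe sets 1 gene symbol, 932 several and 9160 none. For each gene the brightest kept probe set with 1 symbol was taken (13608 of 18194 genes). Member probe sets were read from a fit of all kept probe sets.

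The test was limma 3.58.1 under R 4.3.3 (eBayes with a trend, two-sided, no covariates), with p-values adjusted by the Benjamini-Hochberg method over all genes or all probe sets, threshold 0.05. Log2 fold changes are RA minus control, with 3 arrays a group. The labels do not say that triplicates were separate cultures, so p-values reflect only a spread between samples that may be technical. The number of arrays limits the precision. Members and lists were chosen with earlier results of these data known. Beside all members, up to 4 genes of each list with the smallest p were named, together with the 5 genes most like Hbb-y. Alad, Alas1, Fech, Tfrc, Ank1, Sptb, Gata1, Klf1, Mb, Ngb, Tspan33 and the genes below the filter were named after their values were seen. So were Apob and the platelet, endothelial and macrophage markers that did not pass. Sequences came from RefSeq tables (GRCm38.p6), and no other coordinates are printed, since no build is named for the array annotation. Alternatives covered scaling, pseudocount, filter, probe set choice, variance trend, left-out arrays and the replicate number as a block. The procedure was tested on simulated data.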

Additional observations from a re-analysis of the deposited data

How the results depend on the processing

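Hbb-y, Hbb-bh1 and Hba-x fell and passed under all 16 alternatives, with log2 fold changes of -6.70 to -5.93, -4.64 to -4.04 and -5.13 to -4.23. The number of members lower with RA was 4 in 12 alternatives. It was 3 with the filter at the 60th percentile and without any single control array, where Alas2 was no longer tested. Leaving out single arrays gave 3 to 4 members lower and 0 higher. Alas2 passed wherever it was tested, from -3.40 with a pseudocount of 1 to -1.31 with a pseudocount of 64, so the size of its fall depends on this choice. Probe set 1450621_a_at of Hbb-y moved likewise, from -8.92 to -5.24. Slc4a1, and with it its probe set 1434502_x_at, changed sign to 0.02 without scaling, 0.05 without RA array 2 and 0.02 without control array 3, ranged from -0.40 to 0.05 without single arrays, and passed in no alternative. Epor passed in no alternative (-0.45 to -0.03). Without scaling, 651 of all genes fell, against 2127 after quantile normalization, 72.9% of all calls were higher against 47.8%, and the median of all genes moved to 0.26 from 0.01, a shift far smaller than the globin falls. Without single arrays, 1681 to 1951 genes fell and 1475 to 1837 rose.

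The other named genes and the list counts were put through the same alternatives, a step chosen after seeing the data. Genes below the filter, Apob and the markers that did not pass were not put through them singly. Without scaling, Pgrmc1, Tmem14c, Slc40a1, Add1, Stom, Kitl, Stat5b, Bcl11a, Gpx1, Hk1, Itga2b, Alad and Alas1 no longer passed, and Prdx2, Fech and Ngb changed sign (0.01, 0.01 and 0.20). Kitl changed sign with the mean of its probe sets (0.01), Sptb with trimmed-mean scaling (-0.03) and Ngb with a pseudocount of 64 (0.00). Without single arrays Stom ranged from -0.83 to 0.03, Ank1 from -0.01 to 0.26, Sptb from -0.06 to 0.24 and Ngb from -0.24 to 0.14. Over all alternatives the heme synthesis list had 2 to 6 genes lower and the erythropoietin list 0 to 4. The causes were not tested.

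Samples of the groups share replicate numbers, but same-numbered arrays did not deviate together (correlations across genes of -0.085, -0.014 and -0.027), so the numbers do not pair the samples. With the replicate block 4 members and 1949 genes fell. No RA level near or below 5.74 can be told from background, which limits the size of the larger falls.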
